A study of Mus musculus with 2 samples.

Results

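The 10 genes described here direct the making of the hair follicle, and they were followed in the skin of newborn mice that lack *Pnpla1*, which encodes an enzyme of acylceramide synthesis in the epidermis, and in that of their wild-type littermates. The members were the genes *Shh*, *Wnt10b*, *Edar*, *Lef1*, *Sox9*, *Lhx2*, *Msx2*, *Dlx3*, *Hoxc13* and *Foxn1*, chosen by name for their role in the follicle, with earlier results of these data known. They are 10 of the 30139 gene names on the array, of which 22374 gave a difference or a bound. Total RNA of the skin of 6 *Pnpla1*+/+ (wild type) mice and of 6 *Pnpla1*-/- (knockout) mice at postnatal day 0 was combined into 1 pool per genotype, and each pool was labelled with Cy3 and hybridized to 1 Agilent mouse array. Both groups had the C57BL/6N strain background. Per the study's methods, the knockout-first *Pnpla1* allele was made in C57BL/6N embryonic stem cells, its reporter and selection cassettes were removed by flippase, and heterozygous mice were bred with each other to give the *Pnpla1*-/- mice and the wild-type littermates. The knockout was not restricted to keratinocytes. The tissue is called skin, as in the sample labels, although the series text also speaks of epidermis. Markers of the epidermis (*Krt5*, with an intensity of 220487 in *Pnpla1*+/+), of the dermis (*Col1a2*, 275482) and of skeletal muscle (*Tnni2*, 190065) were all far above background on the *Pnpla1*+/+ array.

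A hair follicle forms when the epidermis and the dermis below it exchange signals. Wnt and ectodysplasin signals set up the placode, a thickening of the epidermis, sonic hedgehog drives its growth down into the dermis, and bone morphogenetic proteins (BMPs) and their inhibitors set the spacing. Transcription factors then keep the follicle stem cells and switch on the keratins of the hair shaft in the matrix at the follicle's base. Newborn mouse skin holds follicles at several of these stages.

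With 1 array for each genotype, the genotypes could not be compared by a test, and each value describes these 2 pools alone. Intensities are given as deposited, on a linear scale after background subtraction. Differences are on the log2 scale, *Pnpla1*-/- minus *Pnpla1*+/+, after each intensity was divided by the 75th percentile of its array (2108 in *Pnpla1*+/+ and 1734 in *Pnpla1*-/-), so that −1 is a level 2-fold lower in *Pnpla1*-/- skin. Among 385 probes spotted at least 8 times, the median technical standard deviation (SD) of a difference was 0.09 for a probe with 1 spot, which leaves out the variation between mice. The *Pnpla1* probe read 579 on the wild-type array and 114 on the knockout array, a difference of −2.07, in the direction of the labels. Sex-linked genes differed between the pools, with *Xist* at 1.12 and the Y-linked *Ddx3y* at −2.19, and the part of the pools' sexes in the values below was not tested.

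Of the 10 regulators, 9 had a lower signal in *Pnpla1*-/- skin and 1, *Foxn1*, a higher one. At least 2-fold lower were 4 of them, *Lhx2*, *Shh*, *Hoxc13* and *Lef1*, and 0 were at least 2-fold higher. The median difference of the 10 was −0.59, a level 1.5-fold lower, against 0.00 over all genes. Of all 22374 genes with a difference or bound, 3.04% were at least 2-fold lower, 6.7% at least 2-fold higher, and 49.8% had a difference below 0. Among the genes past 2-fold 68.8% were higher, a share that was 27.5% when the arrays were centred on the spike-in RNA and 41.2% unscaled. All 10 regulators were well above background on both arrays, over 11 probes and 29 spots, and 0 of these spots carried an outlier flag or were saturated. In whole skin, fewer follicle cells and less RNA per cell cannot be told apart.

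**Figure D1:**
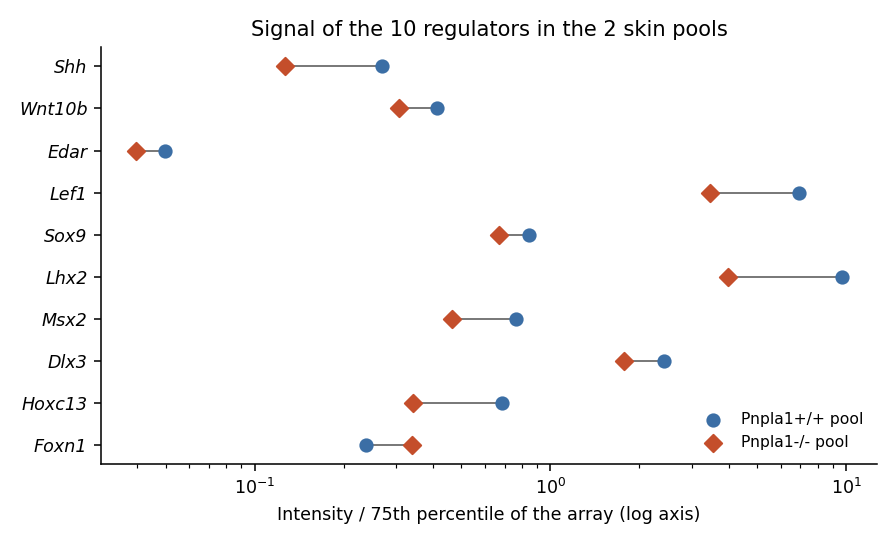
Signal of each regulator in the *Pnpla1*+/+ pool (blue circles) and the *Pnpla1*-/- pool (red diamonds), as intensity divided by the 75th percentile of the array on a log axis, with 1 array per genotype and the brightest probe of each gene. The red diamond lies left of the blue circle for 9 genes and right of it for *Foxn1*, and positions of different genes cannot be compared because each has its own probe.

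Among the secreted signals and receptors, *Shh* stood out. Sonic hedgehog is the ligand that the epithelial part of the follicle sends to make it grow downward. Its probe (chr5:28783983-28784042 of mm9) was spotted 10 times, with intensities from 529.97 through a median of 572 to 608 on the wild-type array and from 200.4 through 219 to 246 on the knockout array. The 2 sets of spots did not overlap, before or after scaling, and the difference of their means was −1.10, with spot SDs of 0.06 and 0.09 on the log2 scale. Spots of 1 probe share the pool's RNA, so that this spread is technical. Only 2.53% of all genes had a lower difference than *Shh*.

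*Wnt10b*, a Wnt ligand of the placode and the hair matrix, had an intensity of 872 on the wild-type array and 534 on the knockout array (chr15:98602209-98602268). This difference, −0.42, exceeded the technical SD but not 2-fold. *Edar*, the receptor of ectodysplasin A in the placode, was the dimmest of the 10, at 105 and 69.0 (chr10:58064202-58064261). Its difference was −0.32, and 20.5% of all genes lay below it. Thus *Shh* differed by more than 2-fold between the pools, while *Wnt10b* and *Edar* did not. Other ligands of these pathways, given below, did not all follow this split.

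**Figure D2:**
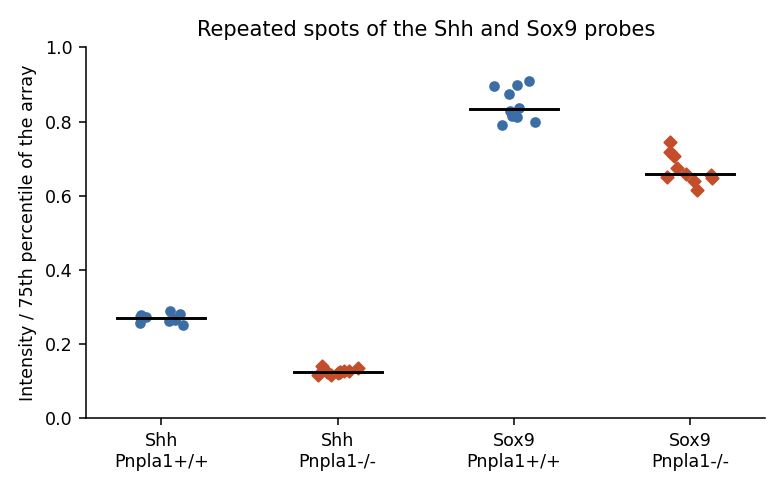
Intensity divided by the 75th percentile of the array for each of the 10 spots of the *Shh* and *Sox9* probes, with the *Pnpla1*+/+ array in blue, the *Pnpla1*-/- array in red and black lines at the medians. The *Pnpla1*+/+ and *Pnpla1*-/- spots do not overlap for either gene, and the medians are 0.271 and 0.126 for *Shh* and 0.833 and 0.658 for *Sox9*.

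The factors that keep follicle progenitors in place were lower to different degrees. *Lhx2*, a LIM-homeodomain factor of the follicle bud and of the bulge stem cells, had the lowest difference of the 10. Its intensity was 20382 on the wild-type array and 6921 on the knockout array (chr2:38224933-38224992), a difference of −1.28 or a level 2.42-fold lower, with 1.82% of all genes below it. *Lef1*, the DNA-binding partner of β-catenin in the placode, the matrix and the dermal papilla, had 2 probes. The brighter probe (chr3:130926200-130926259) had an intensity of 14654 on the wild-type array and 5998 on the knockout array, and the other (chr3:130907851-130926012, a span longer than the probe) 3470.2 and 1448. Their differences were −1.01 and −0.98, within the technical SD of each other and on either side of 2-fold. *Sox9*, a factor of the outer root sheath and the follicle stem cells, was spotted 10 times, with intensities from 1668 through a median of 1757 to 1914 on the wild-type array and from 1067 through 1140.3 to 1290.1 on the knockout array (chr11:112648809-112648868). The spots did not overlap, but the difference was only −0.34, so that *Sox9* was close to *Edar* in size and far from *Lhx2*.

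The homeodomain factors of the hair matrix were also lower. *Hoxc13*, which acts on hair keratin genes, had an intensity of 1451 on the wild-type array and 592 on the knockout array (chr15:102759058-102759117). Its difference of −1.01 passed 2-fold by less than the technical SD. *Msx2*, a factor of the matrix and the differentiating shaft, had an intensity of 1608 and 806 (chr13:53562318-53562377), a difference of −0.71. *Dlx3*, which is needed for the shaft and the inner root sheath and is also made in the upper layers of the epidermis, had an intensity of 5123 and 3069 (chr11:94986262-94986357), a difference of −0.46. The probes for *Hoxc13*, *Msx2* and *Dlx3* each had 1 spot.

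*Foxn1*, the forkhead factor that is lost in nude mice and acts in the hair shaft and in the suprabasal epidermis, went the other way. Its intensity was 501 on the wild-type array and 589 on the knockout array (chr11:78171867-78171926), a difference of 0.52, and 84.2% of all genes lay below it. The order from the lowest difference was *Lhx2*, *Shh*, *Hoxc13*, *Lef1*, *Msx2*, *Dlx3*, *Wnt10b*, *Sox9*, *Edar* and *Foxn1*. Of the neighbours in this order, *Shh* and *Hoxc13* lay within 0.09 of each other, as did *Hoxc13* and *Lef1*, *Dlx3* and *Wnt10b*, *Wnt10b* and *Sox9*, and *Sox9* and *Edar*, so that their order is within the technical SD. Probe coordinates are those of the files on mm9, and which exon or untranslated region a probe lies in was not determined, as no mm9 gene models were used.

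**Figure D3:**
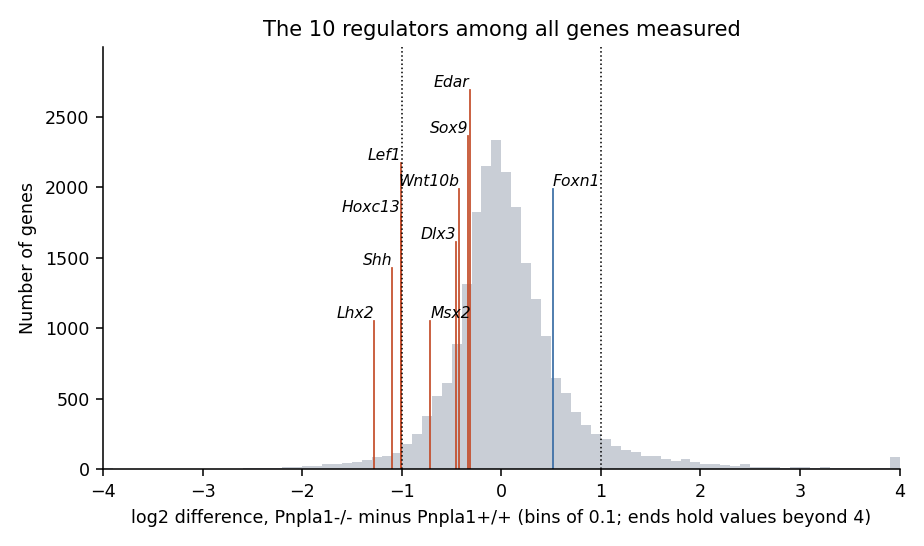
Number of genes at each log2 difference, *Pnpla1*-/- minus *Pnpla1*+/+, in bins of 0.1 (grey bars, 22374 genes) with a vertical line at each of the 10 regulators (red where lower, blue where higher; line heights carry no value) and dotted lines at 2-fold. *Lhx2*, *Shh*, *Hoxc13* and *Lef1* lie at or left of the lower dotted line and *Foxn1* lies right of 0.

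RefSeq promoter windows on GRCm38.p6, from 250 bases before to 50 bases after a gene's start, were found for 6 of the 10 genes (*Wnt10b*, *Lef1*, *Lhx2*, *Msx2*, *Edar* and *Foxn1*), 10 windows in all. They were searched on both strands for letters that factors of the follicle are known to prefer, CTTTGAT for Lef1 and Tcf, TAATTA for homeodomains, GACCACCC for Gli, ACGC for Foxn1 and ACAAT for Sox. The windows that hold CTTTGAT or TAATTA are shown as their 250 bases before the start, 5′ to 3′ on the gene's strand, with these letters in capitals.
Edar (chr10:58675697-58675946, minus strand): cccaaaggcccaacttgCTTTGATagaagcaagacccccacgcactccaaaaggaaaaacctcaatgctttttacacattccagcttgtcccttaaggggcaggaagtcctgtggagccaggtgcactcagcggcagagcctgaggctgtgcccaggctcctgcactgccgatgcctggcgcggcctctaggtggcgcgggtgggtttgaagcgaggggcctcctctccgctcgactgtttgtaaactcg
Msx2 (chr13:53472781-53473030, minus strand): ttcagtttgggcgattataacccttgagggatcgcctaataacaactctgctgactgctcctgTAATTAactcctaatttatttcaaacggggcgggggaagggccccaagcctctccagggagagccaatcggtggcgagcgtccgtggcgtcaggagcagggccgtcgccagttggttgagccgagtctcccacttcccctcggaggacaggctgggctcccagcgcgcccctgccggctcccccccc
Foxn1 (chr11:78386609-78386858, minus strand): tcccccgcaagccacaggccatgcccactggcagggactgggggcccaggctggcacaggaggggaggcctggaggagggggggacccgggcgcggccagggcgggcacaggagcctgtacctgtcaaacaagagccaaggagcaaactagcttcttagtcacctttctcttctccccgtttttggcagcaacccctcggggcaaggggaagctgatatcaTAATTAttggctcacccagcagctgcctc
The CTTTGAT of *Edar* begins 233 bases before the start, the TAATTA of *Msx2* 187 and that of *Foxn1* 29 bases before it. Of all 32851 windows, 3.73% held CTTTGAT and 5.29% TAATTA, and these windows belonged to 4.29% and 6.12% of all genes. GACCACCC was in none of the 10 windows and in 0.807% of all. ACGC was in windows of 5 of the 6 genes, all but *Foxn1*, against 57.9% of all 27025 genes and 55.3% of all windows. ACAAT was in windows of 2 genes, *Lef1* and *Foxn1*, against 34.4% of all genes and 31% of all windows. *Edar* and *Msx2* had a lower and *Foxn1* a higher signal in *Pnpla1*-/- skin, so that the genes with these letters did not share a direction. A match of letters is a description of the sequence and not a binding site.

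Most other genes of the hedgehog pathway, from ligand processing to targets, also had a lower signal in *Pnpla1*-/- skin. Of the 15 other genes of the hedgehog list, 14 had a difference, 12 of them below 0, with a median of −0.46 (−0.28 with probes averaged per gene), and 3 were at least 2-fold lower and 0 at least 2-fold higher. *Hhip*, which binds and restrains the ligand and is induced by it, had an intensity of 4491 on the wild-type array and 1555 on the knockout array, a difference of −1.25, and its dimmer probe gave −1.81. *Ptch1*, the receptor and a target of the pathway, was at −1.01 and −0.95 on its 2 probes. The transcription factor *Gli2* was at −1.06 and *Gli3* at −0.98. *Gli1*, the usual readout of pathway activity, was at −0.97 with intensities of 25842 and 10823. A dim *Gli1* probe, at 33.8 and 38.4, passed the background limit on the knockout array alone. Its difference went the other way, at least 0.46. *Smo*, the signal transducer, differed by only −0.27, and *Dhh* and *Boc* by 0.01 and −0.09. *Sufu*, a brake on the Gli factors, had the highest difference, 0.64, at the low intensities of 60.1 and 77.1, and *Ihh* was below the background limit on both arrays.

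The Wnt list held 45 other genes, of which 44 had a difference, 41 of them below 0, with a median of −0.56. At least 2-fold lower were 6 genes, at least 2-fold higher 0. *Dkk1*, a secreted Wnt inhibitor and target, had an intensity of 1400.5 on the wild-type array and 331 on the knockout array, a difference of −1.80. *Sp5*, a target of β-catenin, was at −1.78 (743 and 178), and the ligand *Wnt7a* at −1.72 (159 and 39.7). The other 3 were *Nkd1* (−1.33), a feedback inhibitor, *Wnt16* (−1.33) and *Rspo3* (−1.10), a ligand that strengthens Wnt signals, and the dimmer probes of *Nkd1* and *Wnt16* gave −1.05 and −0.72. *Lgr5*, a receptor of R-spondins in follicle stem cells, was at −0.99, and *Wls*, which Wnt ligands need for secretion, at −0.88. *Axin2*, another Wnt target, was at −0.51, while its dimmer probe gave 0.09. *Ctnnb1*, which encodes β-catenin, differed by −0.30, the ligand *Wnt4* by −0.02 and the co-receptor *Lrp6* by −0.00. The highest difference was that of *Wnt10a*, at 0.38 with intensities of 6716 and 7208, opposite in sign to *Wnt10b*.

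The ectodysplasin list had a median close to that of all genes. Of its 9 genes, 8 had a difference, with a median of 0.03 (−0.40 with spike-in centring) and members from −0.75 to 1.25. Of these 8, 0 were at least 2-fold lower and 1 at least 2-fold higher. The ligand *Eda* was at −0.28, the adaptor *Edaradd* at −0.41 and the related receptor *Tnfrsf19* at −0.75, the lowest of the list. *Nfkbia*, an inhibitor and target of NF-κB that many other signals induce as well, went from 30706 in *Pnpla1*+/+ to 59937 in *Pnpla1*-/- skin, a difference of 1.25. *Traf6*, *Tab2* and *Ikbkg*, shared with other receptors, differed by 0.09, 0.01 and 0.05, and *Relt* by 0.74 at intensities of 95.2 and 131.

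In the BMP and activin list, 19 of 20 genes had a difference, with a median of −0.32, 3 were at least 2-fold lower and 1 at least 2-fold higher. *Bmp2*, a ligand of the placode and matrix, was at −1.38 (2808 and 889), *Inhba*, the activin A subunit, at −1.25 (2032 and 701) and the receptor *Bmpr1b* at −1.07. The inhibitors did not share a direction. *Grem1* was at 1.14 (351 and 636) and *Nog*, which the dermis makes to allow placodes, at 0.26, whereas *Fst* was at −0.90 and *Sostdc1* at −0.89. The target genes *Id1*, *Id2* and *Id3* differed by 0.10, −0.19 and −0.60.

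Of 39 other transcription factors with known places in the follicle, all had a difference or bound, with a median of −0.48, 7 at least 2-fold lower and 2 at least 2-fold higher. *Runx2* was at −1.76 (113 and 27.4), but another probe gave −0.53. *Hoxc9* was at −1.63 (2929 and 780.2), *Dlx4* at −1.32, *Dlx2* at −1.30, *Dlx1* at −1.28, *Hoxc10* at −1.20 and *Hoxc8* at −1.01. *Msx1*, the relative of *Msx2*, was at −0.80, close to it. The 2 higher genes were *Grhl3*, a factor of barrier formation in the epidermis, at 2.47 (4689 and 21384), and *Ovol1*, which acts in epidermis and follicle, at 1.59 (1056 and 2620). *Trp63*, the master factor of all stratified epithelium, differed by 0.14 at its brightest probe and by −0.15, −0.23 and −0.26 at the others, and *Hr*, needed for hair cycling, by 0.69.

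**Figure D4:**
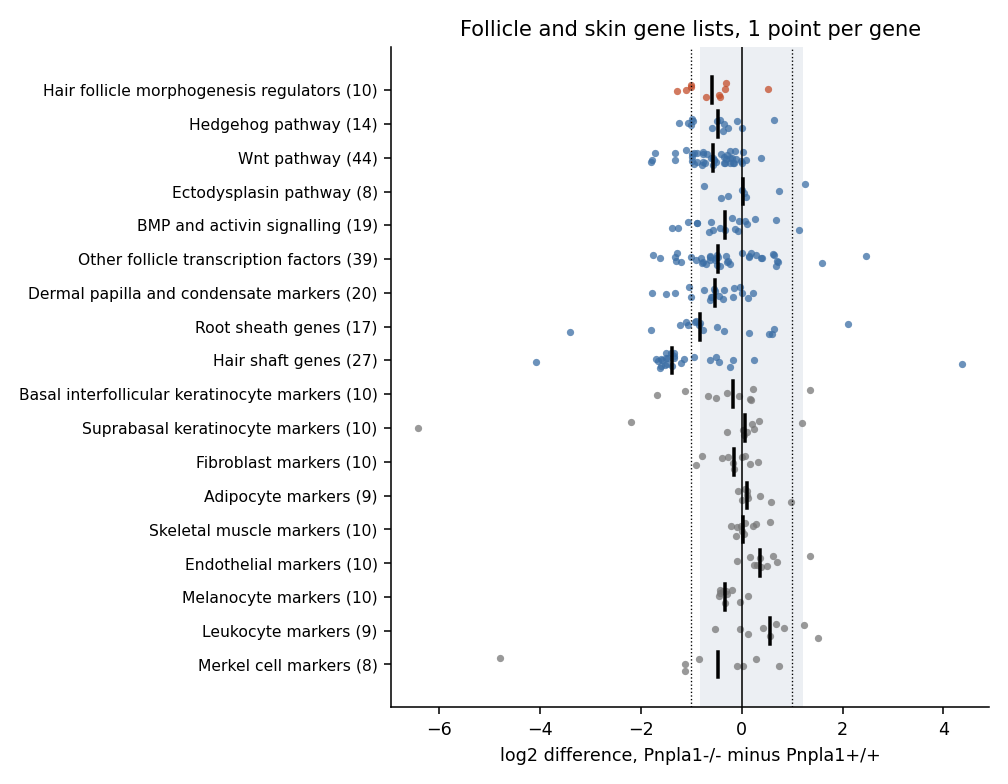
Log2 difference, *Pnpla1*-/- minus *Pnpla1*+/+, of each gene with a difference or bound in 18 lists (number of genes in brackets), with the 10 regulators in red, other follicle lists in blue, other skin lists in grey and a black bar at each median. The shaded band holds the middle 90% of all 22374 genes, the vertical line is their median and dotted lines mark 2-fold; the medians of the hair shaft and root sheath lists, −1.38 and −0.82, lie furthest to the left.

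The structural genes of the hair shaft and root sheath, and the markers of the dermal part of the follicle, had medians below 0 as well. Of 33 hair shaft genes, 29 had a named probe and 27 a difference, at a median of −1.38, with 19 at least 2-fold lower and 1 at least 2-fold higher. *Krt35*, an early keratin of the shaft, went from 22088 in *Pnpla1*+/+ to 7211 in *Pnpla1*-/- skin, a difference of −1.33, *Krt33a* was at −1.70, and the keratin-associated *Krtap3-2* at −4.08 (1315 and 63.9). *Krt84* went the other way, at 4.37 (57.5 and 974). *Krt85* gave −0.18 at its brightest probe but −1.34 at the next, with intensities of 10976 and 3557. Sequences of hair keratin genes resemble one another, and a probe may also bind transcripts of a relative. Of the root sheath genes, 5 of 17 were at least 2-fold lower and 1 at least 2-fold higher, with a median of −0.82. *Krt72* and *Krt26* of the inner root sheath were at −3.41 and −1.80, while *Krt17*, also a keratin of stressed epidermis, was at 0.65. *Tgm3*, a transglutaminase of the inner root sheath and of the upper epidermis, was at 2.12, but its other probe gave 0.03. Of the dermal papilla and condensate markers, 5 of 20 were at least 2-fold lower and 0 at least 2-fold higher, with a median of −0.54. *Crabp1* was at −1.78, *Corin* at −1.49, *Twist2* at −1.05, *Sox18* 2.01-fold lower, and *Fgf20*, whose signal passed the background limit on the wild-type array alone, was at least 2.49-fold lower.

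The signal of the hair shaft list was summed as intensity over the 75th percentile, added over genes with a probe. It was 33.7 on the wild-type array and 16.6 on the knockout array. The brightest probe was that of *Krt35* in wild-type and *Krt85* in knockout skin. Another *Krt85* probe, at 3557 on the knockout array, was dimmer than that of *Krt35*, at 7211. Here and below, a list is led by its brightest probe. Brightness depends on the probe as well as on the RNA level, so this does not rank genes. The sums were 198 and 158 for the root sheath list, with the brightest probe that of *Krt79* in wild-type and *Krt17* in knockout skin. For the dermal papilla list the sums were 26.5 and 18.7, with the brightest probe that of *Twist2* in wild-type and *Enpp2* in knockout skin. For the 10 regulators they were 22.3 and 11.5, led by *Lhx2* in both. Whether the pools differed in their amount of follicle tissue was not measured, and the part of such a difference in the regulators' values was not tested.

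Lists of other cells of the skin had medians nearer 0 than the hair shaft and root sheath lists, or above 0. The Merkel cell and melanocyte medians, −0.47 and −0.32, were close to those of the hedgehog and BMP lists, −0.46 and −0.32. Of the fibroblast markers, 0 of 10 passed 2-fold, with a median of −0.16 (−0.33 with quantile normalization, −0.31 with cyclic loess and −0.59 with spike-in centring) and summed signals of 385 on the wild-type array and 355 on the knockout array, led by *Col1a2*. Of these markers 6 were below 0, with *Dpt* at −0.91 and *Fbn1* at −0.78 the lowest, and 4 above it, up to *Pdgfra* at 0.32. None of 9 adipocyte markers, 10 skeletal muscle markers and 10 melanocyte markers passed 2-fold either. The adipocyte median was 0.10, turning below 0 with spike-in centring, quantile normalization or no scaling. The adipocyte sums were 123 and 142, led by *Fabp4*, with *Lep* not well above background. *Adrb3* had the highest adipocyte difference, 0.99, and its dimmer probe gave 0.61. The skeletal muscle median was 0.03 (−0.40 with spike-in centring), with sums of 415 and 445, led by *Tnni2*. The melanocyte median was −0.32, with sums of 33.7 and 26.9, led by *Dct*. Of the 10 melanocyte markers 9 were below 0, as many as of the 10 regulators, though none was lower than −0.44. Below 0 were also 1 of 9 adipocyte, 4 of 10 skeletal muscle, 1 of 10 endothelial and 2 of 9 leukocyte markers. The same held for 6 of 10 basal, 3 of 10 suprabasal and 5 of 8 Merkel cell markers. Among 10 endothelial markers 1, *Vwf*, was at least 2-fold higher, with a median of 0.37 that turned below 0 with spike-in centring. *Flt1* was at 0.70 at its brightest probe but at 1.38 and at least 1.26 at the others. The endothelial sums were 11.9 and 16.6, with the brightest probe that of *Cldn5* in wild-type and *Vwf* in knockout skin. Among 9 leukocyte markers with a difference, *Ptprc* (1.51) and *Adgre1* (1.24) were at least 2-fold higher. *Itgam* was at −0.03 at its brightest probe, while its dimmer probes gave 2.84 and 1.14. The leukocyte median was 0.57, with sums of 42.5 and 41.1, led by the mast cell gene *Cpa3*. *Cd207* was below the background limit on both arrays. The basal interfollicular list had a median of −0.17 and sums of 215 and 236, led by *Krt5*. Its *Krt15*, which also marks follicle stem cells, was at −1.67, *Krt14* at 1.35 and *Dst* at −1.12, but the 2 dimmer *Dst* probes gave −0.20 and 0.19. The suprabasal list had a median of 0.07 (−0.36 with spike-in centring) and sums of 487 and 499, led by *Krt10*. Its members ran from *Flg2* at −6.41 to *Dsc1* at 1.20, with *Krt77* at least 4.58-fold lower. Of 8 Merkel cell markers 3 were at least 2-fold lower, *Chga* (−4.79), *Krt20* (−1.12) and *Atoh1* (at least 2.17-fold lower). The Merkel cell median was −0.47 (−0.14 with normexp background correction), with sums of 3.23 and 0.966. The brightest probe of this list was that of *Chga* in wild-type and *Krt18* in knockout skin. The part of any of these cell types in the regulators' values was not tested.

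The direction of all 10 regulators was the same under each of 12 other ways of scaling, correcting or choosing the probes, but the number past 2-fold was not. *Lhx2* was at least 2-fold lower in 12 of 12, *Shh* in 11, *Hoxc13* in 10 and *Lef1* in 9. The number of regulators past 2-fold was 5 with spike-in centring, where 9.84% of all genes were as low, 3 with probes averaged per gene (2.97%), 2 with cyclic loess (3.37%) and 1 with normexp background correction (1.42%). At a threshold of 1.5-fold it was 5, against 9.35% of all genes, and at 3-fold it was 0, against 1.02%. Settings that only change the scaling factor move every gene by the same amount. Of the 12 settings, 2 of this kind shifted the median of all genes furthest from its reported value. The E1A spike-in RNA, of which 8 probes were well above background, had a difference of 0.43 after the main scaling (from 0.30 to 0.49), and centring on it moved the median of all genes to −0.43, while using no scaling moved it to −0.28. Under spike-in centring *Foxn1* was at 0.08, less than the technical SD from 0, and *Msx2*, at −1.15, became the fifth gene past 2-fold. Relative to the median of all genes, the median of the 10 regulators was between −0.69 and −0.54 under the 12 settings, and −0.59 as reported. Normexp background correction brought *Edar*, the dimmest gene, to −0.09 and left only *Lhx2* past 2-fold.

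**Figure D5:**
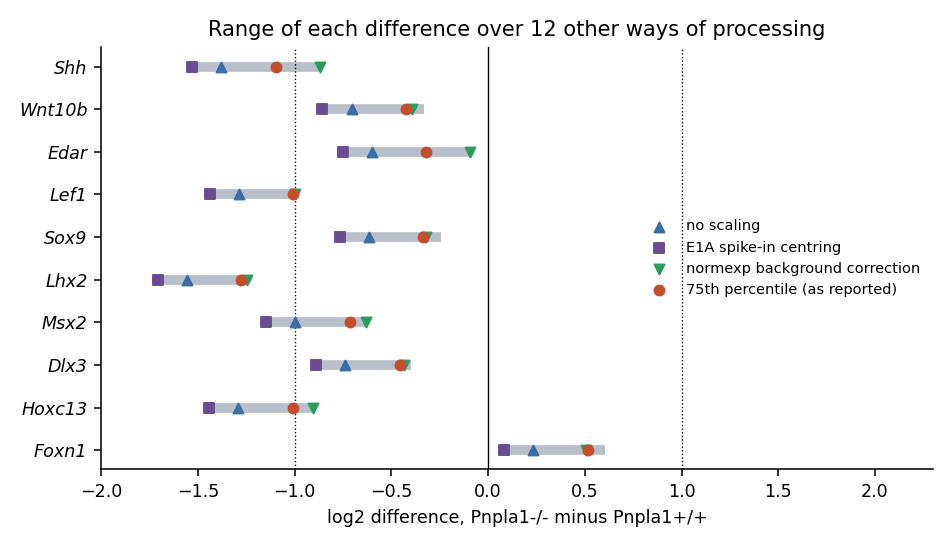
Log2 difference, *Pnpla1*-/- minus *Pnpla1*+/+, of each regulator as reported (red circles) and its range over 12 other ways of processing (grey bars), with spike-in centring (purple squares), no scaling (blue triangles pointing up) and normexp background correction (green triangles pointing down) marked. The bars of 9 genes stay left of 0 and that of *Foxn1* right of it, from 0.08 to 0.60, and the bars of *Shh*, *Hoxc13*, *Lef1* and *Msx2* cross the dotted line at −1.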

How the data were processed

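Total RNA of newborn skin, pooled from 6 mice per genotype, was labelled with Cy3 and hybridized to Agilent Mouse Gene Expression 4x44K v2 arrays, 1 per genotype. Per the submitters' processing notes, scans were read with Agilent Feature Extraction 11.5.1.1. The authors deposited, for each of 43020 spots other than controls, a background-subtracted and detrended intensity that is not scaled between arrays. They also deposited a table of ratios of that intensity to 1 factor per array, 2109 and 1734, with column medians of 0.106 and 0.111, and its linear scale and lack of centring are therefore known. Of the spots, 71.7% and 73.3% were well above background and 0 saturated. Precision is limited by the number of arrays.

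The log2 of the intensity over the 75th percentile of the array was computed in Python 3.11.15 (numpy 2.4.6, pandas 2.3.3). Outlier-flagged spots (138 and 82) were removed from both arrays, spots of a probe were averaged, and each gene was given by its brightest probe. Where a probe passed the scanner's background limit on a single array, the difference is a bound: the dim side was set to the dimmest passing signal of its array, or to the probe's own signal if that was higher. Of 39429 probes, 31456 were named through a RefSeq table of GRCm38.p6 and 7973 kept the name in the files. Genes were counted at 2-fold, since 1 array per genotype allows no test, p-value or SD between mice. The members, the 17 other lists and the motifs were chosen with earlier results of these data known. All members and all their probes are given. From each list, genes to name were the 3 largest differences, the brightest gene and, for short lists, any gene, but not all of these are given. Some list genes given beyond these were chosen after their values were seen. The 12 alternative settings used limma 3.58.1 under R 4.3.3 for quantile normalization, cyclic loess and normexp (offset 50), and thresholds of 1.5-fold and 3-fold were also tried. The steps were tested on simulated data. The values of 1 list gene are not reported here.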

Additional observations from a re-analysis of the deposited data

How the results depend on the processing

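The 9 lower regulators and *Foxn1* kept their direction under each of the 12 alternative settings, and *Pnpla1* kept its own. Under spike-in centring the median of the 10 was −1.02, *Pnpla1* was at −2.50, and 2182 genes were at least 2-fold lower and 827 higher, against 681 and 1499 as reported. With no scaling the same values were −0.87, −2.35, 1424 and 998. Normexp background correction gave −1.51 for *Pnpla1*, 315 genes lower, 966 higher and 1 of the 10 regulators at least 2-fold lower, and cyclic loess left 2 of them (*Lhx2* and *Shh*). Without a filter on dim probes 1.1e+03 genes were lower and 3041 higher. At 1.5-fold, 2092 genes were lower and 3092 higher, with 5 regulators lower, and at 3-fold 228 and 684, with 0 regulators. The share of higher genes among those past 2-fold was 68.8%, against 27.5% with spike-in centring, 58.7% with quantile normalization and 41.2% unscaled. The adipocyte median turned to −0.33 with spike-in centring, −0.033 with quantile normalization and −0.18 unscaled, and the endothelial median to −0.060 with spike-in centring. As reported, the ectodysplasin, skeletal muscle and suprabasal medians were 0.03, 0.03 and 0.07. With spike-in centring these medians were −0.40, −0.40 and −0.36, and unscaled they were −0.25, −0.25 and −0.21. They were also slightly below 0 with quantile normalization, as were the muscle and suprabasal medians with cyclic loess and the ectodysplasin and muscle medians with scaling by the median. Spike-in centring, no scaling, scaling by the median and by the 75th percentile of the bright probes alone move all genes, and with them the medians of all lists, by construction, and their relation to the RNA content of the tissue was not tested; the cause of the other changes was not tested. With 1 array per genotype no replicate could be left out. No paired analysis was possible because each genotype has 1 array. Signal over background limits dim genes such as *Edar*, *Relt*, *Sufu* and *Fgf20*.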

Other observations

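The clusters that hold *Hoxc13* and *Dlx3* were looked at as a whole after the values of some of their genes had been seen. Of 9 *Hoxc* genes on chromosome 15, 8 had a difference or bound, 4 were at least 2-fold lower in *Pnpla1*-/- skin and 0 at least 2-fold higher. Over all genes with a difference or bound, 3.04% were at least 2-fold lower and 6.7% at least 2-fold higher. The lower *Hoxc* genes were *Hoxc13* (−1.01), *Hoxc10* (−1.20), *Hoxc9* (−1.63) and *Hoxc8* (−1.01). *Hoxc6*, *Hoxc5* and *Hoxc4*, at the other end of the cluster, differed by −0.18, 0.09 and 0.18, with intensities of 5368, 268 and 2539 in *Pnpla1*+/+ and 3910.1, 234 and 2360.2 in *Pnpla1*-/- skin. Between *Hoxc13* and *Hoxc10*, *Hoxc12* passed the background limit on the knockout array alone, at 24.7 and 31.4, a level at least 1.54-fold higher, and *Hoxc11* was below the background limit on both arrays.

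*Dlx3* and *Dlx4* are neighbours on chromosome 11, and *Dlx4* had the larger difference, −1.32 (899 and 296) against −0.46. *Dlx1* and *Dlx2*, neighbours on chromosome 2, were at −1.28 and −1.30, and *Dlx5* on chromosome 6 was at 0.72 (530.03 and 719.7). *Dlx6* was below the background limit on both arrays, with intensities of 6.31 and 7.03.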
